A study of Homo sapiens with 64 samples.

Results

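An shRNA and an siRNA (siRNA-3) lowered NNT to a similar level in NCI-H295R, a steroid-producing cell line from a human adrenocortical carcinoma, and the 13 libraries described here show how far the transcripts around that loss differed between them. The contrast is a difference of differences: KD shRNA (4 libraries) minus SCR shRNA (3), less KD siRNA-3 (3) minus SCR siRNA (3). KD is the NNT knockdown and SCR its scrambled control of the same kind. A positive difference means a higher shRNA effect than siRNA-3 effect. The 13 libraries came as 52 lane samples of the series' 64, which make 16 libraries when the 4 lanes of each are summed. The other 3 libraries carry siRNA-2, which the rule leaves out because NNT was less reduced there. Harvest of the siRNA cells came 72 h after they were transfected. How long the shRNA cells had carried their construct, and whether they descend from 1 clone, was not stated in the labels, so the kind of construct and the time since its delivery cannot be told apart. Libraries are named by the code in their title, such as 18-3. The labels speak of triplicates while 4 libraries are KD shRNA, and no label says whether libraries are separate cultures. The p-values here therefore reflect library-to-library spread that may be technical only.

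NNT, nicotinamide nucleotide transhydrogenase, sits in the inner mitochondrial membrane and uses the proton gradient to turn NADH and NADP into NAD and NADPH. The NADPH feeds the glutathione and thioredoxin systems that remove peroxides, and in adrenal mitochondria it is also the kind of reducing power that cytochrome P450 enzymes of steroid synthesis draw on. RNA interference adds its own features as background: an siRNA acts for days after transfection and an shRNA is transcribed in the cell, and either can also lower transcripts that match only the short seed at its 5′ end. The guide sequences are not in the files used here.

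NNT was read first, as the check of the labels. It stood at 28.7, 29.8, 34.5 and 34 CPM (gene counts scaled to a common library total) in the KD shRNA libraries, against 381, 316 and 414 CPM with SCR shRNA. It stood at 36, 31.8 and 47.7 CPM in the KD siRNA-3 libraries, against 353, 296 and 362 CPM with SCR siRNA. Every knockdown library lay far below every control, and the KD shRNA and KD siRNA-3 ranges overlapped. The log2 fold change was -3.54 (SE 0.13) with the shRNA and -3.13 (SE 0.15) with siRNA-3, with adjusted p of 7.12e-11 and 2.42e-09 in edgeR's quasi-likelihood test with Benjamini-Hochberg adjustment, the source of every adjusted p given for a gene unless another tool is named. The difference was -0.42 (SE 0.19, 95% interval -0.81 to -0.024), 1.33-fold more loss with the shRNA, with an adjusted p of 0.426. It missed the threshold of 0.05 after adjustment over all genes, while the unadjusted p of that test was 0.0387 and the interval lay below 0. In a fit with the title code as a replicate block it was -0.52 (SE 0.12, adjusted p = 0.0686). A modest gap in depth of knockdown, with more loss with the shRNA, is therefore possible. Without the KD siRNA-3 library 30-11, which kept the most NNT of its group, the difference was -0.235. The gene spans chromosome 5 from 43602692 to 43707405 on the plus strand (GRCh38, GENCODE annotation), with 22 exons in its longest coding transcript. NNT-AS1, annotated on the opposite strand across it, had a difference of -0.11 (SE 0.17).

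**Figure D1:**
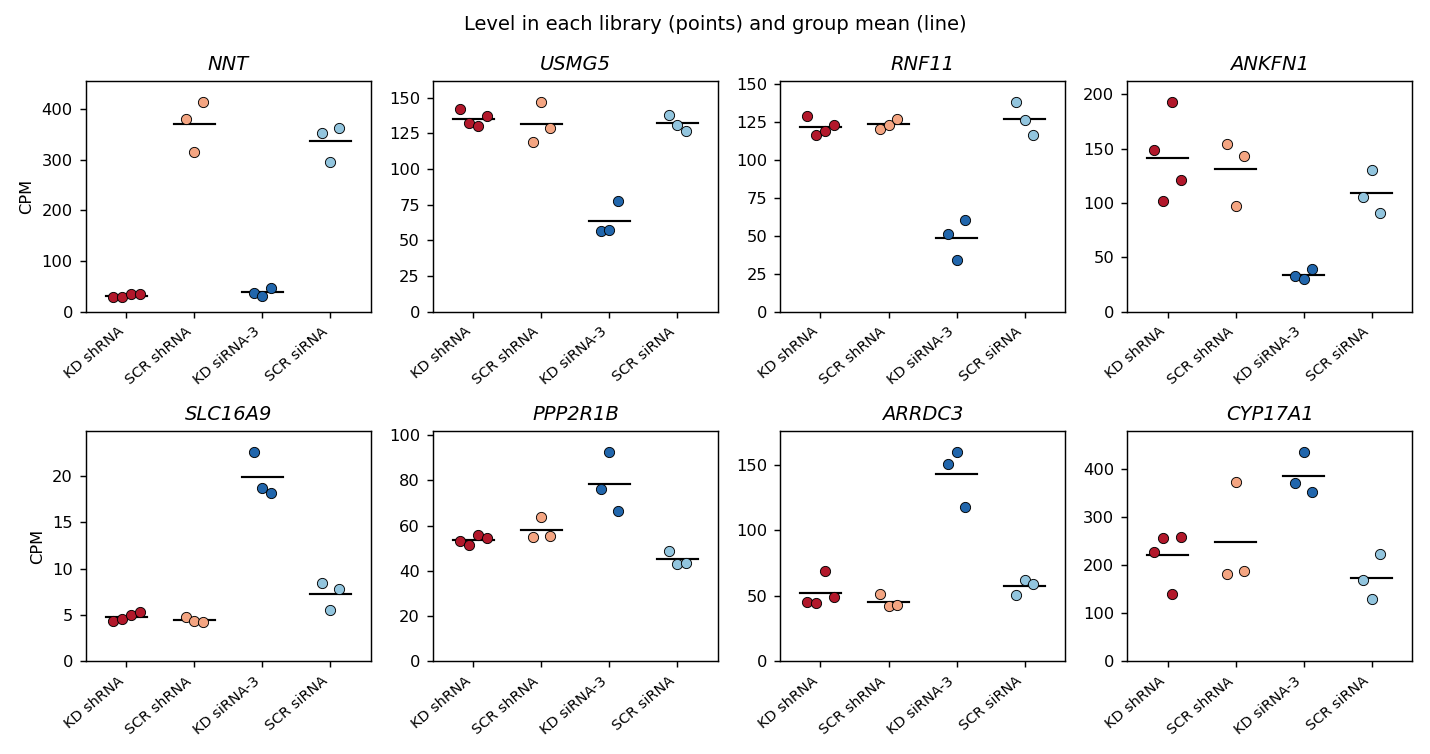
CPM of NNT, the 5 genes past the threshold, ARRDC3 and CYP17A1 in each of the 13 libraries, grouped as KD shRNA, SCR shRNA, KD siRNA-3 and SCR siRNA; a point is a library and a line the group mean, on linear axes from 0. NNT was low in both knockdown groups, while USMG5, RNF11 and ANKFN1 were low, and SLC16A9, PPP2R1B and ARRDC3 high, in the 3 KD siRNA-3 libraries.

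Of 15113 genes tested, 5 had a difference of effects past the threshold (0.0331% of genes), 3 higher (0.0199%) and 2 lower (0.0132%). In each of the 5 the siRNA-3 effect was the larger in size, and their shRNA effects lay between -0.11 and 0.1. All 5 were also called in the siRNA-3 comparison, as 2.64% of all genes were. None had an unadjusted p under 0.05 in the shRNA comparison, where 1.63% of all genes had one. The 5 were picked on a difference that contains both effects, so these counts are a description. USMG5, RNF11 and ANKFN1 fell with siRNA-3, and SLC16A9 and PPP2R1B rose with it.

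USMG5 encodes a small subunit of the mitochondrial ATP synthase and is now named ATP5MK or ATP5MD. It was at 142, 132, 130 and 137 CPM with KD shRNA, against 119, 147 and 129 CPM with SCR shRNA. With KD siRNA-3 it was at 56.6, 57.4 and 77.8 CPM, against 138, 131 and 127 CPM with SCR siRNA. The 3 KD siRNA-3 libraries lay below all others and the other groups overlapped. The difference was 1.08 (SE 0.15, adjusted p = 0.0144), from an shRNA effect of 0.037 and an siRNA-3 effect of -1.04, or 2.06-fold lower with siRNA-3. The gene lies on chromosome 10 from 103389041 to 103396492 (minus strand, GRCh38). TAF5, which overlaps it on the opposite strand, had a difference of -0.21 (SE 0.15).

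RNF11, a RING finger protein that works with ubiquitin ligases, was at 129, 116, 119 and 123 CPM with KD shRNA, against 120, 123 and 127 CPM with SCR shRNA. In the KD siRNA-3 libraries it read 51.1, 34.1 and 60.1 CPM, against 138, 126 and 116 CPM with SCR siRNA. Again the KD siRNA-3 libraries alone stood apart, below the rest. The difference was 1.37 (SE 0.19, adjusted p = 0.0144), with effects of -0.018 for the shRNA and -1.38 for siRNA-3. RNF11 spans chromosome 1 from 51236271 to 51273455 on the plus strand (GRCh38), with 3 exons in its longest coding transcript.

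ANKFN1, named for its ankyrin repeats and fibronectin type III domain, varied more between libraries. It was at 149, 102, 193 and 121 CPM with KD shRNA, against 154, 97.4 and 143 CPM with SCR shRNA. KD siRNA-3 gave 33.2, 29.9 and 39.3 CPM, against 106, 130 and 90.5 CPM with SCR siRNA. The SCR siRNA values overlapped those of the shRNA groups, with library 30-11 just below them, and the KD siRNA-3 libraries lay below all of these. The difference of 1.78 (SE 0.28, adjusted p = 0.0385) was the highest of the 5, a 3.42-fold gap between the fold changes. ANKFN1 spans chromosome 17 from 55882301 to 56511659 on the plus strand (GRCh38).

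SLC16A9, a membrane transporter of the monocarboxylate family linked to carnitine, was the lowest-expressed gene of the 5. It was at 4.32, 4.55, 5.05 and 5.28 CPM with KD shRNA, against 4.84, 4.32 and 4.21 CPM with SCR shRNA. The KD siRNA-3 values were 22.6, 18.7 and 18.2 CPM, against 8.42, 5.52 and 7.76 CPM with SCR siRNA. The SCR siRNA libraries already lay above both shRNA groups, and KD siRNA-3 lay above them in turn. The difference was -1.36 (SE 0.22, adjusted p = 0.0385), with a 2.76-fold rise in KD siRNA-3. SLC16A9 lies on chromosome 10 from 59650761 to 59736002 (minus strand, GRCh38), with no other annotated gene across it.

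PPP2R1B, a scaffold subunit of protein phosphatase 2A, was at 53.3, 51.4, 55.8 and 54.6 CPM with KD shRNA, against 54.9, 63.7 and 55.5 CPM with SCR shRNA. With KD siRNA-3 it was at 76.4, 92.7 and 66.3 CPM, against 49, 43.1 and 43.7 CPM with SCR siRNA. KD siRNA-3 lay above and SCR siRNA below both shRNA groups, so each siRNA group adds to the difference of -0.9 (SE 0.15, adjusted p = 0.0417). PPP2R1B lies on chromosome 11 from 111726908 to 111766427 (minus strand, GRCh38). SIK2, which overlaps it on the opposite strand, had a difference of 0.04 (SE 0.14).

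These 5 calls were not stable to single libraries. All 5 kept their direction in each of the 13 refits with a library left out, with log2 differences of 0.997 to 1.24 for USMG5, 1.16 to 1.55 for RNF11, 1.59 to 1.9 for ANKFN1, -1.49 to -1.19 for SLC16A9 and -1.01 to -0.77 for PPP2R1B. They passed in 8, 7, 4, 3 and 1 of the 13. Without KD siRNA-3 11-1, SCR shRNA 18-3, SCR shRNA 24-2, SCR siRNA 16-1 or SCR siRNA 23-5 edgeR called 0 genes, with 1152, 1656, 1344, 1531 and 1489 genes at an unadjusted p under 0.05, and DESeq2 called 171 genes on all 13 libraries. Without KD siRNA-3 30-11 edgeR called 62. The edgeR count was 2 without KD shRNA 18-3, KD shRNA 24-2 or KD siRNA-3 23-5, 1 without SCR shRNA 19-2 and 10 without SCR siRNA 30-11.

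With the title code as a replicate block, 116 genes passed (0.768%), 77 higher (0.509%) and 39 lower (0.258%). All 5 genes above were among the 116, each of the 116 had the same sign without the block, and 110 had an unadjusted p under 0.05 there. In 109 of the 116 the siRNA-3 effect was the larger in size. Over all genes the SD of effects was 0.19 with the shRNA and 0.311 with siRNA-3. Of the 116, 6 had an unadjusted p under 0.05 for the shRNA and 106 for siRNA-3, where 1.63% and 18.9% of all genes had. The 116 were picked on the difference of these effects, so the counts are a description. The block leaves 3 residual degrees of freedom in place of 9 and in effect leaves out the 3 libraries whose code no other of the 13 has. In those same 10 libraries without the block 0 genes passed, with 995 at an unadjusted p under 0.05.

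**Figure D2:**
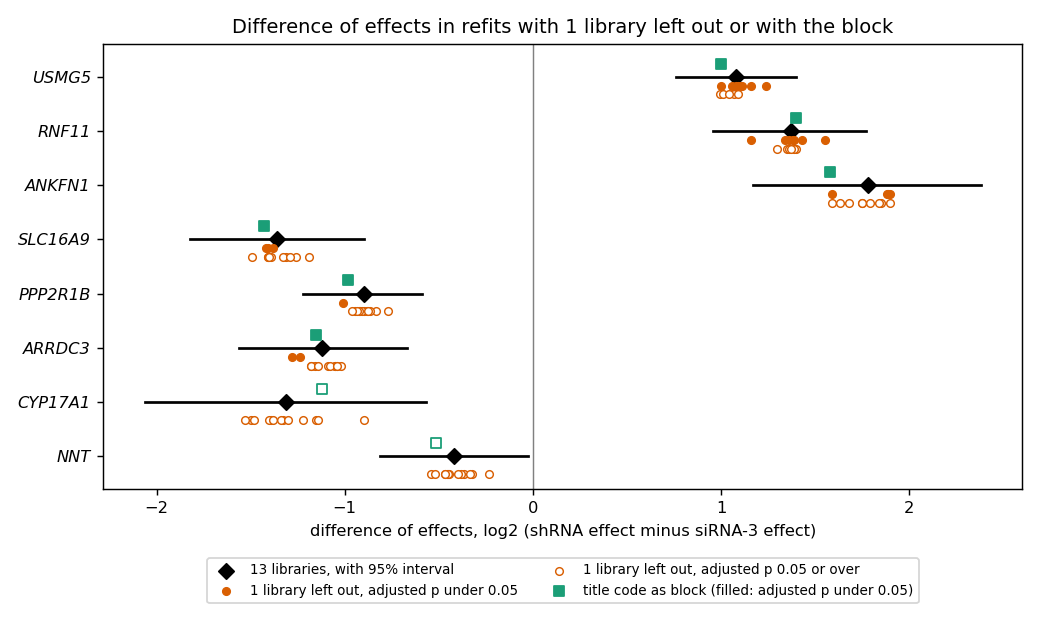
Log2 difference of effects (shRNA effect minus siRNA-3 effect) of 8 genes: a black diamond is the value from 13 libraries with its 95% interval, an orange circle a refit without 1 library and a green square the fit with the title code as a block, filled where the adjusted p is under 0.05. None of the 8 crosses 0 in these refits, while the calls change, as for PPP2R1B, filled in 1 of 13 leave-out refits.

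Below the threshold, METTL9, EFHD2, WEE1 and ARRDC3 were among the genes with the smallest unadjusted p. They had KD siRNA-3 libraries outside all others as well, and ARRDC3 is described further on. METTL9, a histidine methyltransferase, averaged 187 ± 12.7 CPM with KD shRNA (SD, n = 4) and 186 ± 10.6 CPM with SCR shRNA (n = 3), and 75.3 ± 26.3 CPM with KD siRNA-3 against 179 ± 12 CPM with SCR siRNA (n = 3 each). Its difference was 1.25 (SE 0.22, adjusted p = 0.0664; 0.00746 with the replicate block). EFHD2, a calcium-binding protein of the actin cytoskeleton, averaged 206 ± 40.9 and 195 ± 8.6 CPM with KD and SCR shRNA, and 121 ± 13.8 and 217 ± 3.13 CPM with KD siRNA-3 and SCR siRNA. Its difference was 0.93 (SE 0.17, adjusted p = 0.0664; 0.0107 with the block). WEE1, the kinase that holds back entry into mitosis, averaged 65.5 ± 3.7 and 69.3 ± 2.46 CPM with KD and SCR shRNA, and 108 ± 8.65 and 73.6 ± 5.36 CPM with KD siRNA-3 and SCR siRNA. Its difference was -0.63 (SE 0.12, adjusted p = 0.0664; 0.013 with the block).

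TAPT1, a transmembrane protein, was laid out differently. It averaged 43.6 ± 0.943 CPM with KD shRNA, 44.5 ± 0.883 CPM with SCR shRNA and 46.1 ± 3.92 CPM with KD siRNA-3, and 29.1 ± 2.09 CPM with SCR siRNA (SD). The SCR siRNA libraries were the ones that stood apart, below the other 3 groups, which overlapped. Its difference was -0.69 (SE 0.12, adjusted p = 0.0527; 0.0274 with the block). In 9 of the 10 genes with the smallest p in either direction, 5 each way, the 3 KD siRNA-3 libraries lay outside the other 10, a layout that 8.87% of all genes had, and TAPT1 was the exception. In all 10 the KD shRNA and SCR shRNA libraries overlapped, as they did in 96.8% of all genes. The 10 were ranked on these same values, so their layout is a description.

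siRNA-2, left out of the contrast, gives a reading of the same genes with another sequence against the same SCR siRNA libraries. In a fit of all 16 libraries 1.97% of genes were called for siRNA-2. USMG5, RNF11 and ANKFN1 had siRNA-2 effects of -0.035, 0.12 and -0.27 (adjusted p of 0.904, 0.69 and 0.606), beside siRNA-3 effects of -1.04, -1.38 and -1.67. SLC16A9 fell with siRNA-2 by 0.75 (adjusted p = 0.0322), the opposite direction to siRNA-3. PPP2R1B was at 0.31 (adjusted p = 0.15), and TAPT1 rose by 0.7 (adjusted p = 0.00134), close to its siRNA-3 value of 0.66. ARRDC3 and CYP17A1 were at 0.12 and -0.36 (adjusted p of 0.737 and 0.482). NNT itself was less reduced with siRNA-2, at -1.11, but unevenly: the 3 libraries read 233, 187 and 49.9 CPM, and the lowest, 11-1, was close to KD siRNA-3 30-11 at 47.7 CPM. In siRNA-2 library 11-1, USMG5, RNF11 and ANKFN1 read 123, 141 and 56.5 CPM, and SLC16A9 and PPP2R1B 3.61 and 63.5 CPM. ANKFN1 was at 87.5 and 126 CPM in the rest of the siRNA-2 group, against 90.5 to 130 CPM with SCR siRNA. The siRNA-2 and siRNA-3 effects share their control libraries.

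ARRDC3 and CYP17A1 had been picked for this contrast with earlier results known. ARRDC3, an alpha-arrestin that takes part in receptor sorting and responds to glucose through the MondoA factor, was at 45.3, 44.7, 69.3 and 49.3 CPM with KD shRNA, against 51.2, 41.9 and 42.7 CPM with SCR shRNA. With KD siRNA-3 the values were 151, 160 and 118 CPM, against 50.8, 61.8 and 59.3 CPM with SCR siRNA. The KD siRNA-3 libraries lay above all 10 others. The shRNA effect was 0.2 (SE 0.14, adjusted p = 1) and the siRNA-3 effect 1.32 (SE 0.16, adjusted p = 0.000575). The difference of -1.12 (SE 0.21, 95% interval -1.56 to -0.67) had an adjusted p of 0.0664 and missed the threshold. It passed with the replicate block (-1.15, adjusted p = 0.00411) and without KD shRNA 2-3 (-1.28, adjusted p = 0.0151) or KD siRNA-3 30-11 (-1.24, adjusted p = 0.0169).

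CYP17A1 encodes the 17-alpha-hydroxylase and 17,20-lyase that leads to cortisol and androgens. It was at 227, 257, 140 and 258 CPM with KD shRNA, against 182, 373 and 188 CPM with SCR shRNA. KD siRNA-3 gave 370, 436 and 352 CPM, against 170, 130 and 223 CPM with SCR siRNA. The SCR shRNA library 19-2, at 373 CPM, lay among the KD siRNA-3 values. The shRNA effect was -0.17 (SE 0.24, adjusted p = 1), and the gene rose with siRNA-3 by 1.15 (SE 0.26, adjusted p = 0.0304). The difference was -1.31 (SE 0.35, 95% interval -2.06 to -0.57, adjusted p = 0.188) and did not pass. Without SCR shRNA 19-2 it was -0.896, and with the block -1.12 (adjusted p = 0.0759). It passed in 0 of 13 leave-out refits and in 1 of 9 other alternatives, the fit with no low-count filter (-1.32, adjusted p = 0.0316).

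No other steroid gene named here passed, and several of their values moved with single libraries or with the block. STAR, which carries cholesterol into mitochondria, averaged 393 ± 35.2 and 376 ± 66.5 CPM with KD and SCR shRNA, and 516 ± 85 and 449 ± 89 CPM with KD siRNA-3 and SCR siRNA, a difference of -0.13 (SE 0.21, 95% interval -0.57 to 0.3). CYP11A1, the side-chain cleavage enzyme that makes pregnenolone, had a difference of -0.054 (SE 0.15, 95% interval -0.37 to 0.26). Both intervals included 0, as did those of CYP21A2 (-1.19 to 0.082) and HSD3B2 (-2.04 to 0.78), which act later. Those of SULT2A1 (-1.36 to -0.32) and MC2R (-1.72 to -0.032) lay below 0. CYP21A2, the 21-hydroxylase of cortisol and aldosterone synthesis, averaged 138 ± 31.6 and 113 ± 38.9 CPM with KD and SCR shRNA, and 284 ± 45.7 and 158 ± 33.7 CPM with KD siRNA-3 and SCR siRNA, a difference of -0.56 (SE 0.3, adjusted p = 0.506), which was -0.268 without SCR shRNA 19-2 and -0.21 with the block. HSD3B2, which turns delta-5 into delta-4 steroids, ran from 10.8 to 80.2 CPM over the 13 libraries and had a difference of -0.63 (SE 0.67), with -0.0859 without SCR shRNA 19-2 and 0.0182 in the fit with the block. SULT2A1, the sulfotransferase of DHEA, had a difference of -0.84 (SE 0.25, adjusted p = 0.218), and MC2R, the ACTH receptor, of -0.87 (SE 0.4, adjusted p = 0.437), or -0.53 without SCR shRNA 19-2 and -0.456 with the block.

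**Figure D3:**
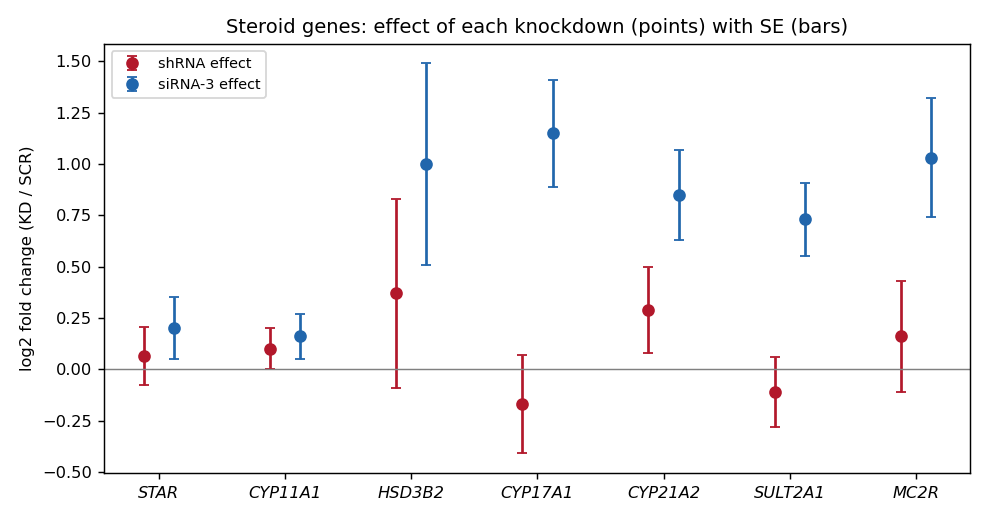
Log2 fold change of knockdown over its scrambled control for 7 steroid genes, with the shRNA (red) and siRNA-3 (blue); points are the fitted values and bars their SE. CYP17A1 was at -0.17 with the shRNA and 1.15 with siRNA-3, while STAR and CYP11A1 had similar values with both.

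Over the 29 gene lists, 608 distinct genes were tested, and edgeR called 1 of them in the difference, SLC16A9. DESeq2 called 6 higher (SOD2, HYOU1, NDUFB5, MDM2, IFI44L and FZD7) and 6 lower (SLC16A9, SLC16A6, ARRDC3, SLC38A2, CCNE1 and E2F2). Over all 15113 genes DESeq2 called 114 higher and 57 lower, and edgeR 3 higher and 2 lower. The lists were chosen with earlier results of these data known, so these counts describe the members only. As a list, the steroidogenesis genes had a median difference of -0.069 over 24 tested, with 0 members called, 3 at an unadjusted p under 0.05 with a lower difference and 0 with a higher one. Over all genes the median difference was 0.0031, and 5.13% of genes were lower and 6.16% higher at that unadjusted p. In the siRNA-3 comparison 2 of the 24 were called, both higher, where 2.64% of all genes were called. Cholesterol synthesis, the supply of the steroid precursor, had a median difference of -0.22 over 23 genes with 6 lower and 0 higher at an unadjusted p under 0.05. Its leading genes were MSMO1, a sterol C4 oxidase, at -0.69 (SE 0.24, adjusted p = 0.295), and SC5D, a sterol desaturase, at -0.49 (SE 0.17, adjusted p = 0.32); with the block MSMO1 was -0.23 and SC5D -0.213, and without KD siRNA-3 11-1 they were -0.483 and -0.342. Genes of the ACTH receptor and protein kinase A had a median of -0.03 over 21, with 2 lower and 0 higher, led by PRKAR2B at -0.3 (SE 0.12) and MC2R. The 13 adrenocortical markers, which include CYP17A1 and DLK1, summed to 3820 to 4420 CPM with KD shRNA, 3960 to 4140 CPM with SCR shRNA, 4970 to 5790 CPM with KD siRNA-3 and 3840 to 4900 CPM with SCR siRNA, all 13 being detected. Less RNA per cell and fewer cells of a kind cannot be told apart in such bulk samples.

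The redox genes around NNT gave no edgeR call in the difference. The list of NADPH supply, which holds NNT itself, had a median difference of 0.018 over 16 genes tested, with 9 above 0 and 7 below. Thioredoxin and peroxiredoxin genes had a median of 0.038 over 20, with 3 higher and 1 lower at an unadjusted p under 0.05, the level behind such counts for each list. In that list SOD2, the mitochondrial superoxide dismutase, led at 0.49 (SE 0.12, adjusted p = 0.145), and PRDX5, a mitochondrial peroxiredoxin, was at 0.39 (SE 0.15). NRF2 targets had a median of 0.092 over 27, with 4 higher and 0 lower, SRXN1, which repairs peroxiredoxins, being at 0.24 (SE 0.1). Glutathione genes had a median of 0.066 over 24, with 1 higher and 0 lower, led by OPLAH at 0.71 (SE 0.31) and MGST2 at 0.28 (SE 0.14). In edgeR no gene of these 4 lists was called in the difference, with or without the block. In the siRNA-3 comparison 1 gene of the NADPH list, NNT itself, was called lower, and 1 of the thioredoxin list, SOD2. NRF2 targets had 1 gene called lower there and glutathione genes 0, where 1.57% of all genes were called lower.

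Among mitochondrial genes beside USMG5, NDUFB5, a subunit of complex I, was at 70.2 ± 3.71 and 66.6 ± 3.3 CPM with KD and SCR shRNA, and 41.6 ± 9.26 and 70.4 ± 0.478 CPM with KD siRNA-3 and SCR siRNA. Its difference of 0.84 (SE 0.16) had an adjusted p of 0.0664, and 0.029 with the block. It was the 1 member of 37 in the complex I list with an unadjusted p under 0.05, and the list median was 0.024. NDUFA3, the next by p, was at 0.53 (SE 0.27), with 1 high KD shRNA library. The TCA cycle list had a median of 0.0085 over 28 with 1 higher, the dehydrogenase subunit DLD at 0.28 (SE 0.094), and IDH3A was at -0.27 (SE 0.14). The mitochondrial ribosome had a median of -0.043 over 52 with 0 members at an unadjusted p under 0.05 either way and no edgeR call, MRPL27 at -0.27 (SE 0.14) and MRPL24 at 0.27 (SE 0.15) being first. The cytosolic ribosome also had a median of -0.043, over 60 with 1 higher and 2 lower, led by RPS25 at 0.53 (SE 0.17) and RPL15 at -0.26 (SE 0.11), genes with near-identical copies whose counts are less certain.

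Among cell cycle genes, the S phase list had a median of -0.095 over 30, with 2 lower and 0 higher at an unadjusted p under 0.05, and both of these passed with the block. CCNE1, the cyclin that drives entry into S phase, was at 85.3, 106, 76.4 and 90.9 CPM with KD shRNA, against 85.2, 103 and 78.6 CPM with SCR shRNA. In the KD siRNA-3 libraries it read 189, 170 and 141 CPM, against 95.7, 84.7 and 82.4 CPM with SCR siRNA. The KD siRNA-3 libraries lay above all others, with a difference of -0.92 (SE 0.18, adjusted p = 0.0664; 0.00791 with the block). E2F2, a transcription factor of the same step, had a difference of -0.57 (SE 0.13, adjusted p = 0.113; 0.0349 with the block), with SCR siRNA as the low group at 31.4 ± 2.5 CPM. The G2 and mitosis list had a median of -0.099, 24 of 30 genes below 0 but 0 at an unadjusted p under 0.05 and no edgeR call, led by MKI67 at -0.47 (SE 0.22) and CENPF at -0.37 (SE 0.21). In p53 response genes, median 0.15 over 25 with 3 higher and 1 lower, MDM2, the ubiquitin ligase that limits p53, led at 0.75 (SE 0.14, adjusted p = 0.0664; 0.052 with the block), and CDKN1A, a cell cycle inhibitor, was at 0.64 (SE 0.2, adjusted p = 0.242). The 1 call of that list with the block was in the other direction, PLK2, a stress-induced kinase, at -1.06 (SE 0.34, adjusted p = 0.26; 0.0321 with the block).

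Genes of stress and nutrient responses split by list. The list of ATF4 targets, which act in amino acid supply, had a median of -0.14 over 30 with 2 higher and 5 lower at an unadjusted p under 0.05. Its leading genes went opposite ways: SLC38A2, a neutral amino acid transporter, was at -0.66 (SE 0.15, adjusted p = 0.118; 0.0424 with the block), and SLC1A5, a glutamine transporter, at 0.48 (SE 0.17, adjusted p = 0.321). Unfolded protein response genes had a median of 0.12 over 20 with 5 higher and 1 lower, led by the endoplasmic reticulum chaperones HYOU1 at 0.34 (SE 0.096, adjusted p = 0.199) and SDF2L1 at 0.57 (SE 0.18, adjusted p = 0.244). Heat shock and mitochondrial chaperone genes had a median of -0.015 over 16 with 3 higher and 1 lower, led by BAG3 at 0.41 (SE 0.12) and the mitochondrial protease CLPP at 0.57 (SE 0.19). Of 8 alpha-arrestin and MondoA genes, the list median was 0.18 although ARRDC3 was at -1.12, and 1 was higher and 1 lower at an unadjusted p under 0.05; the higher one was MLXIPL, a glucose-sensing transcription factor, at 0.62 (SE 0.26). The median siRNA-3 effect of the 8 was -0.17, and 1 of them, ARRDC3, was called higher with siRNA-3. Of 8 SLC16 transporters tested, 2 were lower and 0 higher, SLC16A9 as called and SLC16A6, a low-expressed transporter of the same family, at -1.31 (SE 0.36, adjusted p = 0.195), with 12.8 ± 4.2 CPM in KD siRNA-3 and 3.37 ± 0.589 CPM in SCR siRNA.

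Cells switch on interferon response genes against viral RNA. Of 31 such genes tested, 9 were higher and 1 lower at an unadjusted p under 0.05, where 6.16% of all genes were higher and 5.13% lower. The median difference was 0.28, and the median effect was 0.026 with the shRNA and -0.23 with siRNA-3. None was called, and 1, IRF9, passed with the block. IFI44L, an interferon-induced gene, was at 18.2, 14.2, 18.8 and 16.9 CPM with KD shRNA, against 18, 17 and 14.2 CPM with SCR shRNA. The KD siRNA-3 values were 10.2, 8.72 and 12 CPM, against 20.7, 16.5 and 16.7 CPM with SCR siRNA. The KD siRNA-3 libraries were the lowest, with a difference of 0.85 (SE 0.2, adjusted p = 0.127). IRF9, a subunit of the factor that carries type I interferon signals to the genome, was at 0.67 (SE 0.2, adjusted p = 0.219; 0.0334 with the block). In the siRNA-3 comparison itself 3 of the 31 were called, all lower, where 1.57% of all genes were.

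Wnt pathway genes also had 9 higher and 1 lower of 26, beside 6.16% and 5.13% of all genes, with a smaller median of 0.071. In the siRNA-3 comparison 7 of the 26 were called, all lower, where 1.57% of all genes were called lower, and 2 were called higher in the difference with the block, where 0.509% of all genes were. FZD7, a Wnt receptor, averaged 114 ± 7.52 and 114 ± 9.12 CPM with KD and SCR shRNA, and 70.6 ± 3.1 and 107 ± 18.7 CPM with KD siRNA-3 and SCR siRNA, a difference of 0.6 (SE 0.15, adjusted p = 0.138). CCND1, a G1 cyclin, was under 1 CPM throughout and had a difference of 1.51 (SE 0.43, adjusted p = 0.209). Immediate early genes had a median of 0.34 over 20, the highest of the lists other than markers, with 4 higher and 0 lower, led by FOSB at 1.2 (SE 0.49) and JUNB at 0.38 (SE 0.16). For FOSB the KD shRNA library 2-3 stood at 9.51 CPM beside 2.92 to 4.08 CPM in the other 3, and without it the difference was 0.673.

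The machinery of RNA interference had a median of -0.11 over 16, 12 of them below 0, with 1 lower and 0 higher. The 1 lower gene was DICER1, which cuts hairpins and double-stranded RNA. It was at 121, 120, 135 and 155 CPM with KD shRNA, against 153, 133 and 159 CPM with SCR shRNA. With KD siRNA-3 it was at 329, 423 and 253 CPM, against 207, 287 and 182 CPM with SCR siRNA. Every siRNA library lay above every shRNA library, and KD and SCR overlapped within each kind. The difference was -0.72 (SE 0.23, adjusted p = 0.267; 0.013 with the block). DGCR8, which acts earlier in microRNA processing, was at -0.2 (SE 0.12).

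**Figure D4:**
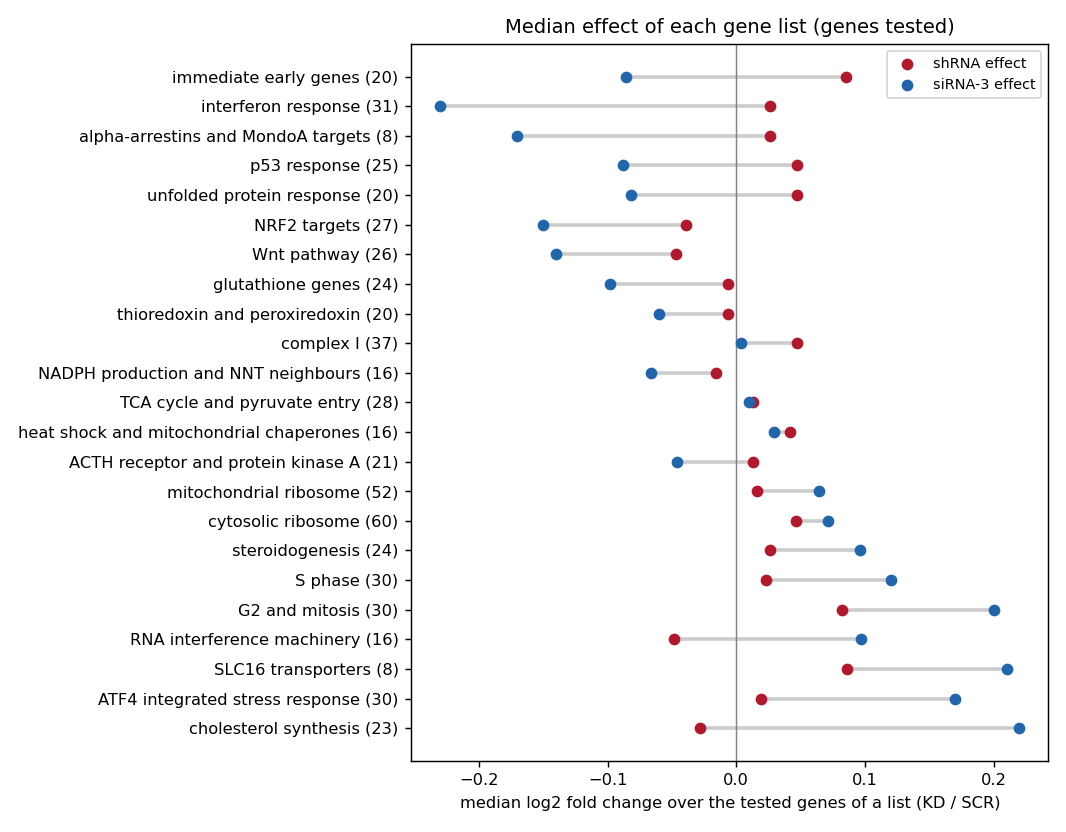
Median log2 fold change of the gene lists other than cell markers and histones (genes tested in brackets) with the shRNA (red) and siRNA-3 (blue), sorted by the median difference. The shRNA medians of the lists shown lie between -0.048 and 0.086, and the siRNA-3 medians spread from -0.23 for interferon response to 0.22 for cholesterol synthesis.

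Gene by gene, most of the siRNA-3 effects were not mirrored in the shRNA comparison. The contrast compares groups that share no library. The shRNA comparison called 2 genes (0.0132%), NNT and PEX5L, a gene of very low counts, and the siRNA-3 comparison 399 (660 with the block), of which 162 were higher (1.07%) and 237 lower (1.57%). Of the 398 siRNA-3 calls besides NNT, 205 had the same sign with the shRNA, or 51.5%, where all tested genes gave 49.3%. Taken in the direction of the siRNA-3 effect, the median shRNA effect of the 398 was 0.0014, with quartiles of -0.052 and 0.054, beside a median siRNA-3 size of 0.53. Of the 398, 12 had an unadjusted p under 0.05 with the shRNA in the same direction and 1 in the opposite one. Among all 15112 genes besides NNT these counts were 137 and 107. Over 15112 genes, NNT aside, Pearson's r between the effects was 0.0317 and Spearman's rho -0.0167; genes are not independent replicates and both effects come from 1 fit. The SD of effects over genes was 0.19 with the shRNA and 0.311 with siRNA-3. An unadjusted p under 0.05 was found for 1.63% of genes with the shRNA against 18.9% with siRNA-3. The shRNA share is below the share of 0.05 that evenly spread p-values would give, so the shRNA test may be too strict. Its few calls and high adjusted p therefore do not show that genes failed to respond to the shRNA.

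**Figure D5:**
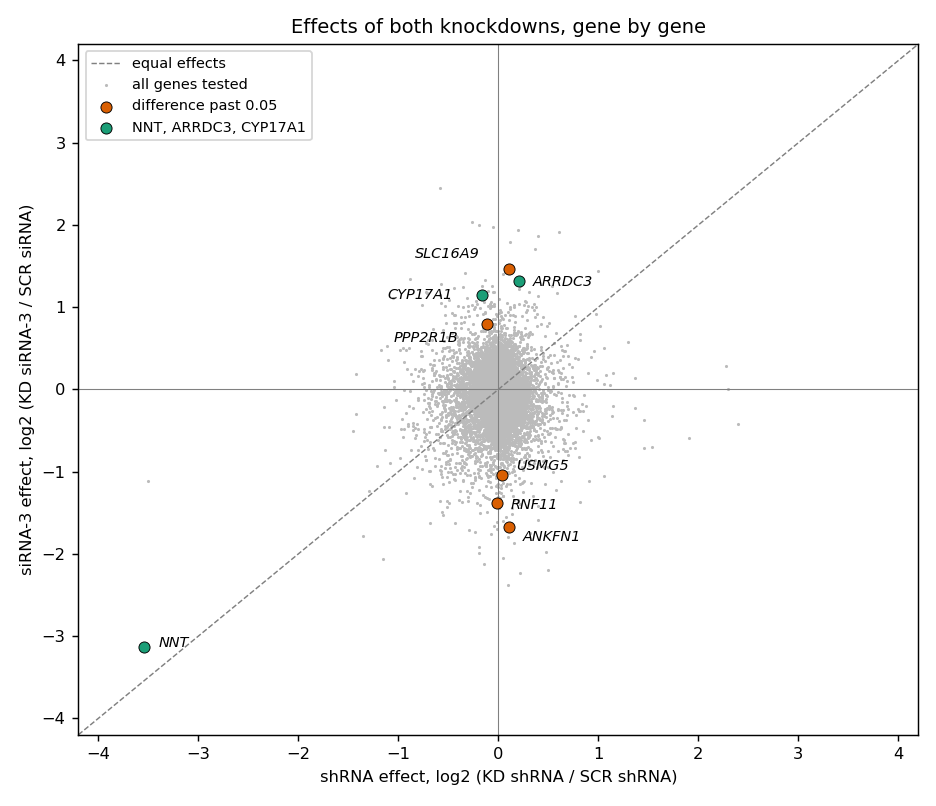
Log2 effect of siRNA-3 (vertical) against that of the shRNA (horizontal) for all genes tested; the dashed line marks equal effects, orange the 5 genes past the threshold in the difference and green NNT, ARRDC3 and CYP17A1. NNT lies near the dashed line at -3.54 and -3.13, and the other marked genes lie along the vertical axis, with shRNA effects between -0.17 and 0.2.

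The mean of both effects asks the reverse question, which genes moved with NNT in both settings. It called 27 genes (0.179%), NNT among them, 8 higher (0.0529%) and 19 lower (0.126%); 261 passed with the block. A mean can pass on 1 effect alone, and each of the 10 genes named here had an adjusted p of 1 in the shRNA comparison. Among genes whose average log2 CPM reached 3, the 5 highest were SLC16A9 at 0.78, ARRDC3 at 0.76, GNRHR, the receptor of gonadotropin-releasing hormone, at 0.62, CCNE1 at 0.47 and TAPT1 at 0.32, whose shRNA effects were 0.1, 0.2, 0.21, 0.0079 and -0.029, beside siRNA-3 effects of 1.46, 1.32, 1.04, 0.93 and 0.66. SLC16A6, under that level, was called at 1.26 (shRNA effect 0.6, siRNA-3 effect 1.91). The 5 lowest above it were ANKFN1 at -0.78, RNF11 and the semaphorin receptor PLXNB3 at -0.7 each, METTL9 at -0.62 and the kinase CDK15 at -0.58. Of these, PLXNB3 and CDK15 had KD libraries below all SCR libraries in each kind. The KD shRNA and SCR shRNA libraries overlapped in 96.8% of all genes, and the share of genes apart in both kinds was not counted. These genes were picked on their mean effect in the same libraries, so the layout is a description. CDK15 was at 19.2, 17.9, 18.4 and 16.8 CPM with KD shRNA, against 21.2, 19.6 and 21 CPM with SCR shRNA. It was at 10.4, 7.22 and 8.61 CPM with KD siRNA-3, against 18.9, 16.2 and 16.7 CPM with SCR siRNA. The shRNA effect of CDK15 was -0.19 (SE 0.11, adjusted p = 1) and its siRNA-3 effect -0.98 (SE 0.12, adjusted p = 0.00104). The difference was 0.79 (SE 0.17, adjusted p = 0.0901; 0.0214 with the block). PLXNB3 averaged 10.9 ± 1.01 and 13 ± 1.6 CPM with KD and SCR shRNA, and 2.32 ± 0.683 and 5.07 ± 0.69 CPM with KD siRNA-3 and SCR siRNA, with effects of -0.26 and -1.14. Over all genes, 45 besides NNT had an unadjusted p under 0.05 in both comparisons, 36 with the same sign and 9 with opposite signs. Singly, 246 of 15113 genes had such a p with the shRNA and 2856 with siRNA-3, and 49.3% of all genes besides NNT had the same sign. Whether 45 is more than an overlap by chance was not tested.

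The 13 libraries held 20148231 to 43992833 gene counts and 17567 to 18571 genes with a count. Markers of other cell types were low but not flat. The sum of 10 fibroblast markers was 74.6 to 81.2 CPM with KD shRNA, 79.9 to 96.9 CPM with SCR shRNA, 41.9 to 55.3 CPM with KD siRNA-3 and 49.5 to 63.6 CPM with SCR siRNA, and 6 of the 10 had a median under 1 CPM; none of the 7 tested was called. The 13 chromaffin and neural markers, which NCAM1 dominates, summed to 404 to 487, 380 to 466, 324 to 406 and 407 to 430 CPM in the same order, with PNMT, the enzyme that makes adrenaline, among those at 0 in all 13 libraries, and 1 of 5 tested was higher at an unadjusted p under 0.05. The 9 endothelial markers stayed under 1 CPM in sum (1 tested) and the 10 immune markers under 4 CPM (4 tested), with no edgeR call and 0 at an unadjusted p under 0.05. Histone genes without a poly(A) tail, a sign of RNA selection, summed to 330 to 401, 349 to 380, 217 to 365 and 231 to 389 CPM in the same order, with 1 of 20 tested higher. The part of these shifts in the differences above was not tested.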

How the data were processed

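Per the labels' protocols, libraries were poly(A)-selected and strand-marking (TruSeq chemistry, NeoPrep robot). The authors deposited whole-number read counts per gene, not normalized, for each of 4 lanes. Alignment to hg19 with STAR 2.4.2a, counting with HTSeq 0.6.1p1 and DESeq2 1.14.1 are named in the submitters' processing notes. No source used here gives the annotation, counting mode or strand setting, and overlapping genes are uncertain for that reason. Files list 26364 genes. Reads in no gene (11.3 to 15.2%), ambiguous reads (1.05 to 1.33%) and multiple alignments (7.47 to 8.17%) stayed out of library sizes.

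Lanes were summed: the chi-square per degree of freedom was 0.995 to 1.05 between lanes and 8.76 to 35.7 between libraries of a group. NNT counts ran from 837 to 17150, so counting error was small.

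A model (a coefficient per group) was fitted to the 13 libraries with TMM scaling, edgeR's low-count filter (minimum count 10), quasi-likelihood tests (edgeR 4.0.16, R 4.3.3, limma 3.58.1) and Benjamini-Hochberg adjustment over 15113 genes at 0.05. The biological coefficient of variation was 0.113. CPM use TMM-scaled totals. The fit was tested on simulated data with 200 changed genes. Members and the 29 lists were chosen with earlier results of these data known. Named were NNT, ARRDC3 and CYP17A1, genes past 0.05 whose average log2 CPM reached 3 or, where fewer than 5 passed in a direction, the 5 of smallest p, 5 steroid genes, the 2 smallest p in each list other than markers, and the 5 highest and lowest mean effects. TAF5, SIK2, NNT-AS1, PEX5L and PLK2 fall outside that rule, being picked once values were known. For 1 gene under this rule, values are not reported here.

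Title codes recur across groups. Deviations from group means correlated by 0.134 to 0.374 in the 5 pairs sharing a code and by -0.326 to 0.162 in 16 other pairs. The codes were therefore taken to pair libraries, from the data only, since the labels do not say what they mark. Blocked values stand beside results whose call or count they change. Alternatives were DESeq2's scaling, no filter or a stricter one (5 CPM in 3 libraries), all 16 libraries, the block, robust dispersion, lane 1 only, DESeq2 1.42.0, leaving out each library and, added after seeing the data, the 10 paired libraries without the block.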

Additional observations from a re-analysis of the deposited data

Results flagged for a closer look

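The 5 genes past the threshold in the difference are differences between groups by a direct test: ANKFN1 at 1.78, RNF11 at 1.37, USMG5 at 1.08, PPP2R1B at -0.9 and SLC16A9 at -1.36. In groups of 4 libraries, a library far from the others was seen for CYP11A1, at 248 CPM in KD shRNA 2-3 beside 326 to 341 CPM in the other 3, and for NDUFA3, at 46.1 CPM in KD shRNA 19-2 beside 24.8 to 26.5 CPM in the other 3. Chance gives about 1 such flag in 20 groups, and each of 60 named genes was looked at. Groups of 3 were not looked at in this way.

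The siRNA-2 libraries, which the contrast does not use, gave effects past the threshold for 5 of the named genes, each against SCR siRNA: SLC16A9 at -0.75, TAPT1 at 0.7, SLC1A5 at 0.9, E2F2 at 0.36 and CDKN1A at 1.77. For SLC16A9 the sign was opposite to that of siRNA-3 (1.46), for TAPT1 the values were close (0.66 with siRNA-3), and for CDKN1A siRNA-3 gave -0.41 (adjusted p = 0.127 in edgeR). The siRNA-2 libraries were uneven: CDKN1A read 532 CPM in 11-1 beside 188 and 183 CPM in the rest, with a mean of 88 CPM in SCR siRNA. SLC1A5 read 38.1 CPM in 11-1 beside 20.8 and 24.2 CPM, with a mean of 14.8 CPM in SCR siRNA. Whether siRNA-2 and siRNA-3 differ in these genes was not tested.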

How the results depend on the processing

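The 5 called genes kept their direction under all 22 alternatives, and all 5 passed with DESeq2's scaling, no filter, the replicate block and DESeq2. The count of 5 was 52 with no low-count filter (39 higher, 13 lower), 2 with the stricter filter (0 lower), 116 with the replicate block (77 higher, 39 lower), 171 with DESeq2 (114 higher, 57 lower) and 0 in the 10 paired libraries without the block (0 higher, 0 lower; 995 at an unadjusted p under 0.05 in edgeR); lane 1 alone gave 0 lower. Leaving out 1 library gave 0 to 62, with 0 to 43 higher and 0 to 19 lower. The shRNA count of 2 was 1 with the stricter filter, with lane 1 and in the 10 libraries, and 1 to 2 with a library left out. The siRNA-3 count of 399 was 660 with the block, 1018 with DESeq2, 22 in the 10 libraries and 98 (without KD siRNA-3 11-1) to 682 (without KD siRNA-3 30-11) with a library left out. The mean-effect count of 27 was 89 with no filter, 261 with the block, 205 with DESeq2, 4 in the 10 libraries and 7 (without SCR shRNA 18-3 or SCR siRNA 23-5) to 123 (without KD siRNA-3 30-11) with a library left out. The cause of these shifts was not tested.

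The NNT difference stayed below 0 throughout, from -0.541 to -0.235 with a library left out, and did not pass. Direction turned for STAR (-0.263 to 0.0184 with a library left out, above 0 without SCR siRNA 23-5), CYP11A1 (-0.115 to 0.0465, with 0.0465 without KD shRNA 2-3 and 0.0319 without SCR siRNA 23-5) and HSD3B2 (0.0182 with the replicate block), all close to 0 or with wide intervals.

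With 3 or 4 libraries a group and a spread of this size, a difference that missed the threshold is not shown to be absent.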
